A study of Mus musculus with 6 samples.

Results

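The insulin-like growth factor (IGF) family was followed in CD24+CD90+CD45- tumor-initiating cells (TICs) and in non-CD24+CD90+ tumor cells, which were sorted from breast tumors of the MMTV-PyMT mouse model. The family was taken as 10 genes chosen by name, the ligands Igf1 and Igf2, the receptors Igf1r and Igf2r, and the binding proteins Igfbp2 to Igfbp7. All 10 were found among the 41388 Ensembl genes of the count files, and all 10 passed the expression filter that left 12192 genes for testing. RNA was sequenced from 3 samples of each population, each sample a pool of 4 cell sorts.

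Mice of both groups were females of the FVB/N-TgN(MMTVPyVT)634Mul/J strain. They were 12 weeks old. The mice carry the polyoma middle T oncogene under the MMTV promoter, which drives it mainly in mammary epithelium, so that every sample, the comparison group included, comes from transgenic tumors. The stated difference between the groups is the sorting gate. TICs were positive for both CD24 and CD90, and the comparison cells lacked one or both of these surface proteins by the study's text, or both by the series description. Leukocytes bearing CD45 were removed from both. The exclusion of CD45 did not remove endothelial cells, fibroblasts or other CD45-negative cells of the tumor. To enter the TIC samples such cells had to bear both CD24 and CD90. By the study's text each sample came from tumors of 4 mice, and a supplementary legend gives a total of 12 mice. It does not say whether these 12 stand for each population or for both. No source used here says outright whether the sorts pooled for a TIC sample and for a comparison sample came from the same mice.

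IGF1 and IGF2 are secreted growth factors that act through the receptor tyrosine kinase IGF1R, which signals to the PI3K-AKT and RAS-MAPK pathways. IGF2R has no kinase and removes IGF2 from the cell surface, and it also carries lysosomal enzymes tagged with mannose 6-phosphate. Secreted IGF binding proteins hold the ligands in the extracellular space and can block or prolong their action, and proteases that cut them set the ligands free. In the normal mammary gland stromal IGF1 supports growth of the ducts under growth hormone, and IGFBP5 is known for its rise during involution after lactation.

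Total counts ranged from 6781239 to 9100552 per sample, and 3 counts corresponded to 0.33 to 0.44 CPM (counts scaled to library size with edgeR's TMM factors throughout). A gene could be at 0 in a sample although the other 2 samples of its group predicted a level well above this. Among genes for which these 2 samples predicted 20 to 60 counts, a part were at 0. This part was 27.5%, 32% and 37.7% in TIC replicates 1 to 3 and 22.3%, 19.7% and 25.1% in the comparison samples. Every TIC sample thus had a larger share of these genes at 0 than every comparison sample. Whether a 0 was a missed transcript or a difference between pools was not tested. TIC replicate 3 lay farthest from the other 5 samples, with a mean root mean square difference of 2.14 in log2 CPM, against 1.74 to 1.95 for the other samples. The epithelial genes Epcam and Krt18 were abundant in all 6 samples, with at least 8454 and 11843 counts. Both were lower in every TIC sample than in every comparison sample. Their log2 fold changes were -0.34 and -0.69 (adjusted p = 0.96 and 0.30, edgeR's exactTest). Ptprc, which encodes CD45, had 33 counts in non-CD24+CD90+ tumor cells replicate 1 and 0 in the other 5 samples. The genes of the sorted surface proteins did not pass the test between the groups. Cd24a had a log2 fold change of -0.34 (adjusted p = 0.98) and Thy1, the gene of CD90, one of 1.25 (adjusted p = 0.35, edgeR's exactTest).

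The question of the comparison was which members of the family differ between TICs and the less tumorigenic tumor cells. Igf1 and the binding proteins Igfbp2, Igfbp3, Igfbp4 and Igfbp7 were higher in TICs, by 2.27-fold to 4.43-fold. Igf2, both receptors, Igfbp5 and Igfbp6 did not pass the test. At an adjusted p-value below 0.1 from exactTest of edgeR, 5 of the 10 members were called higher, where 1.36% of all tested genes were. Of the 10 members 0 were called lower by exactTest, the quasi-likelihood test or DESeq2, against 0.189% of all genes in exactTest. Igfbp5 alone had a negative log2 fold change, with an unadjusted p-value above 0.05. The median log2 fold change (TIC minus non-CD24+CD90+) was 1.30 over the 10 members and -0.01 over all tested genes. In 7 members every TIC sample was above every comparison sample, a pattern found in 7.69% of all genes. The 5 calls were not shared by every test. With the quasi-likelihood test of edgeR 1 member was called, Igfbp2, and 0.402% of all genes were called higher, and DESeq2 called the same 5 members and 1.95% of all genes higher. In a mixed sample a higher level can come from more cells of a type or from more RNA per cell, and these counts cannot tell the 2 apart.

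**Figure D1:**
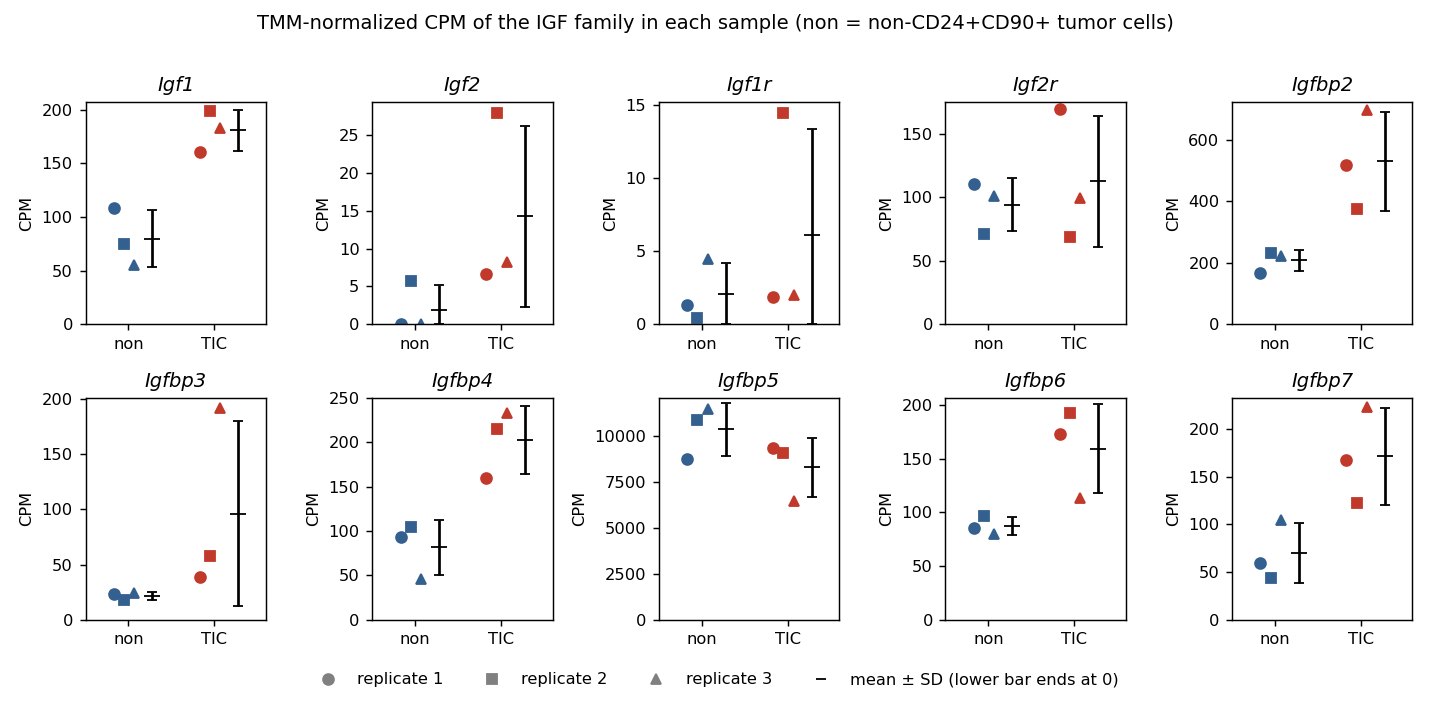
TMM-normalized CPM (vertical axes, from 0, each gene on its own scale) of the 10 IGF family genes in 3 non-CD24+CD90+ samples (blue) and 3 TIC samples (red), with the symbol giving the replicate and the black bar the mean ± SD of a group. The TIC samples lie above all comparison samples for Igf1, Igf2, Igfbp2, Igfbp3, Igfbp4, Igfbp6 and Igfbp7, and the groups overlap for Igf1r, Igf2r and Igfbp5.

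Of the ligands, Igf1 (ENSMUSG00000020053, chr10:87858265-87937042, GRCm38) had 160, 198 and 183 CPM in TIC replicates 1 to 3. In non-CD24+CD90+ tumor cells it had 109, 74.9 and 55.6 CPM. The 3 TIC samples were close to each other, the highest 1.24 times the lowest, and all lay above the comparison samples. The means were 181 ± 19.2 CPM in TICs and 79.7 ± 26.8 CPM in the comparison group (SD, n = 3). This gave a log2 fold change of 1.18 (SE 0.34, adjusted p = 0.061, edgeR's exactTest), or 2.27-fold, where SE is the standard error. Igf1 lost this call without replicate 2 or 3 of the comparison cells (adjusted p = 0.40 and 0.45) or without TIC replicate 2 (adjusted p = 0.25). It also lost it in the quasi-likelihood test (adjusted p = 0.21) and without a filter on low counts (adjusted p = 0.13).

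Igf2, the ligand of fetal growth that is expressed from the paternal allele, was far lower. Igf2 (ENSMUSG00000048583, chr7:142650766-142666816) had 60, 240 and 62 counts in TIC replicates 1 to 3 and 0, 50 and 0 counts in the comparison samples. TIC replicate 2 thus held most of the reads, and 2 of the 3 comparison samples held none. The mean was 14.2 ± 11.9 CPM in TICs and 1.89 ± 3.28 CPM in the comparison cells (SD, n = 3). Its log2 fold change of 2.90 had a SE of 1.69 (adjusted p = 0.89, edgeR's exactTest), and the 95% interval ran from -0.41 to 6.21. A difference was not resolved from the spread between samples. Of the 5723 bases in the exons of Igf2, 3596 are shared with the overlapping gene model Gm49394 on the same strand, which has no row in the count files, and how reads in the shared part were counted is not given in the sources used here. H19, the imprinted RNA gene beside Igf2 that is expressed from the other parental allele, was present in all samples at 837 to 1669 counts, with a log2 fold change of -0.02 (adjusted p = 1).

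The signalling receptor was scarce. Igf1r (ENSMUSG00000005533, chr7:67952827-68233668) had 17, 124 and 15 counts in TIC replicates 1 to 3 and 9, 4 and 31 counts in the comparison samples. TIC replicate 2 stood alone, and the other 5 samples lay between 0.454 and 4.43 CPM, so that the groups overlapped. The log2 fold change of 1.56 (SE 1.62, adjusted p = 1, edgeR's exactTest) turned to -0.10 without TIC replicate 2. The 95% interval from -1.62 to 4.73 leaves a large change in either direction possible. Insr, the insulin receptor and closest relative of IGF1R, was more abundant, with 431 to 984 counts in the comparison samples and 686, 787 and 2008 counts in TIC replicates 1 to 3. Its log2 fold change was 0.62 (SE 0.46, adjusted p = 0.93).

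The clearance receptor was well measured and overlapped between the groups. Igf2r (ENSMUSG00000023830, chr17:12682406-12769664) had 169, 68.9 and 99.0 CPM in TIC replicates 1 to 3 and 110, 70.7 and 101 CPM in the comparison samples. TIC replicate 1 was the highest of the 6 samples and TIC replicate 2 the lowest. Its log2 fold change was 0.26 (SE 0.39, 95% interval -0.50 to 1.02, adjusted p = 1 from edgeR's exactTest), and without TIC replicate 1 it was -0.15. The antisense RNA gene Airn lies across Igf2r but shares none of its exonic bases. Igf2 and Igf2r are both imprinted genes, and neither passed the test.

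The binding proteins held most of the family's transcripts. Igfbp5 and Igfbp2 are neighbours on chromosome 1, with 5457 bases between the ends of their gene models, and are read toward each other. They are the most abundant members of the family here. The 250 bases before the start of each are shown because one of the neighbours was called higher in TICs and the other was not, with those of Igfbp4 and Igfbp7, which were also called. The sequences are RefSeq's, from the GRCm38.p6 reference and not from FVB/N mice, written 5′ to 3′ on the strand of the gene. Promoter entries were found for all 10 members. Capitals mark the TATA box TATAAA and the GC box GGGCGG, each searched on both strands.

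Igfbp2 (chr1:72824230-72824479, plus strand): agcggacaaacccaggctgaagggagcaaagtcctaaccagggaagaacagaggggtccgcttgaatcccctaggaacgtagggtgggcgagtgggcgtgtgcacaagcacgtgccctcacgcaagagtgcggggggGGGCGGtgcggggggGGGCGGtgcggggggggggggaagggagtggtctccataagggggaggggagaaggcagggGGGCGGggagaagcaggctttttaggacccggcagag
Igfbp5 (chr1:72874866-72875115, minus strand): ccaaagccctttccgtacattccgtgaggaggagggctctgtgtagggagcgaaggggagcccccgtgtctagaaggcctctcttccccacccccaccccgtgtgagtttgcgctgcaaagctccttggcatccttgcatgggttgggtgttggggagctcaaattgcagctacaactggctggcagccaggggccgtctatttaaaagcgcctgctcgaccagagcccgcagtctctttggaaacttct
Igfbp4 (chr11:99040994-99041243, plus strand): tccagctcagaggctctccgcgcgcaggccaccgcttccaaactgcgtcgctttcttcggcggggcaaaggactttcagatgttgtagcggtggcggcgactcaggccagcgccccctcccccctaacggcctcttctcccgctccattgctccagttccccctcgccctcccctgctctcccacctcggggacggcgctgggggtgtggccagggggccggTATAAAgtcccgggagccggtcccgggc
Igfbp7 (chr5:77408046-77408295, minus strand): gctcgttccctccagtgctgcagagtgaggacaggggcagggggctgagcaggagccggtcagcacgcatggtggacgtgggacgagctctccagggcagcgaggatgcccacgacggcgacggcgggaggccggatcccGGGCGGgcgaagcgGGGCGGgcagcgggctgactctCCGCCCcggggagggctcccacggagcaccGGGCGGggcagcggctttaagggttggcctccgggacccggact

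The Igfbp2 sequence held 3 GC boxes, at -113, -98 and -37 from the start, and that of Igfbp7 held 4, at -110, -96, -74 and -44. Igfbp4 held a TATA box at -28 and no GC box. The Igfbp5 sequence held neither motif in this window. Among 32851 promoters of the same length, 32.7% held a GC box and 12.4% a TATA box. GC content was 67.2% for this Igfbp2 start, 69.2% for Igfbp4, 74.0% for Igfbp7 and 58.8% for Igfbp5, against a median of 52.4% over all promoters. Igfbp2 has a second start in the table, with no match to either motif before it. Igf1 and Igfbp3, both called, held neither motif, while Igf1r held 2 GC boxes and Igf2r 3, and neither of these was called. GC content was 52.8% for Igf1 and 77.6% for Igf1r. Igfbp6 held a TATA box at -148, and of the 4 starts of Igf2 a pair held GC boxes.

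Igfbp5 (ENSMUSG00000026185, chr1:72857932-72874884) was by far the most abundant member. It took 0.605% to 1.18% of all counts in a sample and ranked from 3 to 5 by count among all genes. Counts grow with gene length, and by CPM per kb of exon it ranked from 20 to 40. It had 9347, 9070 and 6474 CPM in TIC replicates 1 to 3 and 8741, 10888 and 11499 CPM in the comparison samples. TIC replicate 3 was the lowest of the 6 samples, while TIC replicates 1 and 2 lay above the lowest comparison sample, so that the groups overlapped. The log2 fold change was -0.32 (SE 0.28, adjusted p = 0.98, edgeR's exactTest). Its 95% interval, from -0.87 to 0.23, corresponds to 0.545-fold to 1.17-fold, and leaving out any one sample kept the estimate between -0.42 and -0.15.

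Igfbp2 (ENSMUSG00000039323, chr1:72824503-72852474), a binding protein with a preference for IGF2, had 518, 377 and 697 CPM in TIC replicates 1 to 3. In the comparison samples it had 167, 232 and 224 CPM. The lowest TIC sample was 1.62 times the highest comparison sample. The means were 531 ± 161 CPM and 208 ± 35.6 CPM (SD, n = 3), a log2 fold change of 1.35 (SE 0.31, adjusted p = 0.0064, edgeR's exactTest). It was the member called in all 8 other tests, normalizations, filters and dispersion settings that kept every sample, with adjusted p-values from 0.00011 to 0.078. Without replicate 1 of the comparison cells the call was lost (adjusted p = 0.13), and without TIC replicate 3 it was kept (log2 fold change 1.13, adjusted p = 0.038). The level of Igfbp2 relative to that of Igfbp5, both per kb of exon, was 0.180, 0.135 and 0.350 in TICs and 0.0621, 0.0694 and 0.0633 in the comparison cells. Every TIC sample thus had at least 0.135, and the comparison samples were almost equal.

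Igfbp3 (ENSMUSG00000020427, chr11:7206086-7213923), the main IGF carrier of the circulation, had the largest fold change among the called members. Its values were 38.7, 57.5 and 192 CPM in TIC replicates 1 to 3 and 23.2, 17.7 and 24.2 CPM in the comparison samples. TIC replicate 3 was 4.97 times TIC replicate 1, whereas the comparison samples spanned a factor of 1.37. In log2 terms the change was 2.15 (SE 0.55, adjusted p = 0.027, edgeR's exactTest). Its size rested on TIC replicate 3, without which it was 1.17 (adjusted p = 0.66). The call was also lost without any one of the comparison samples (adjusted p = 0.16, 0.28 and 0.15 without replicates 1, 2 and 3) and in the quasi-likelihood test (adjusted p = 0.21). Igfbp1, which lies 3539 bases from Igfbp3 and is known as a liver gene, had 0 counts in all 6 samples.

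Igfbp4 (ENSMUSG00000017493, chr11:99041244-99054392), which holds IGFs until the protease PAPPA cuts it, had 159, 215 and 233 CPM in TIC replicates 1 to 3. The comparison samples had 93.3, 105 and 46.3 CPM. All TIC samples were higher, the lowest by a factor of 1.52 over the highest comparison sample. Igfbp4 had a log2 fold change of 1.31 (SE 0.36, adjusted p = 0.041, edgeR's exactTest). The call was lost in the quasi-likelihood test (adjusted p = 0.20) and without replicate 1 or 3 of the comparison cells (adjusted p = 0.14 and 0.33) or TIC replicate 2 or 3 (adjusted p = 0.18 and 0.13). The log2 fold change stayed between 1.03 and 1.54 in these fits.

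Igfbp7 (ENSMUSG00000036256, chr5:77349240-77408041), a related secreted protein that binds IGFs only weakly and is prominent in vessels, had 168, 122 and 223 CPM in TIC replicates 1 to 3 and 59.98, 44.0 and 105 CPM in the comparison samples. The groups did not overlap, but the gap was small, with the lowest TIC sample 1.17 times the highest comparison sample. Igfbp7 had a log2 fold change of 1.30 (SE 0.39, adjusted p = 0.078, edgeR's exactTest). The call was lost without replicate 1 or 2 of the comparison cells (adjusted p = 0.41 and 0.56), without TIC replicate 3 (adjusted p = 0.31), in the quasi-likelihood test (adjusted p = 0.25), with library size alone (adjusted p = 0.11) and without a filter (adjusted p = 0.17). Of its exonic bases, 85 overlap Polr2b on the opposite strand, and whether the counting used strand is not given in the sources used here.

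Igfbp6 (ENSMUSG00000023046, chr15:102144362-102149511), the binding protein with the strongest preference for IGF2, had 173, 192 and 113 CPM in TIC replicates 1 to 3. The comparison samples had 85.4, 96.7 and 79.5 CPM. All TIC samples were higher, and TIC replicate 3 was the nearest to the comparison cells. Its log2 fold change of 0.87 (SE 0.33, adjusted p = 0.30, edgeR's exactTest) did not pass. Without TIC replicate 3 it was 1.09 and passed (adjusted p = 0.074). Igfbp6 was thus lowest among TICs in the sample in which Igfbp2, Igfbp3, Igfbp4 and Igfbp7 were highest.

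**Figure D2:**
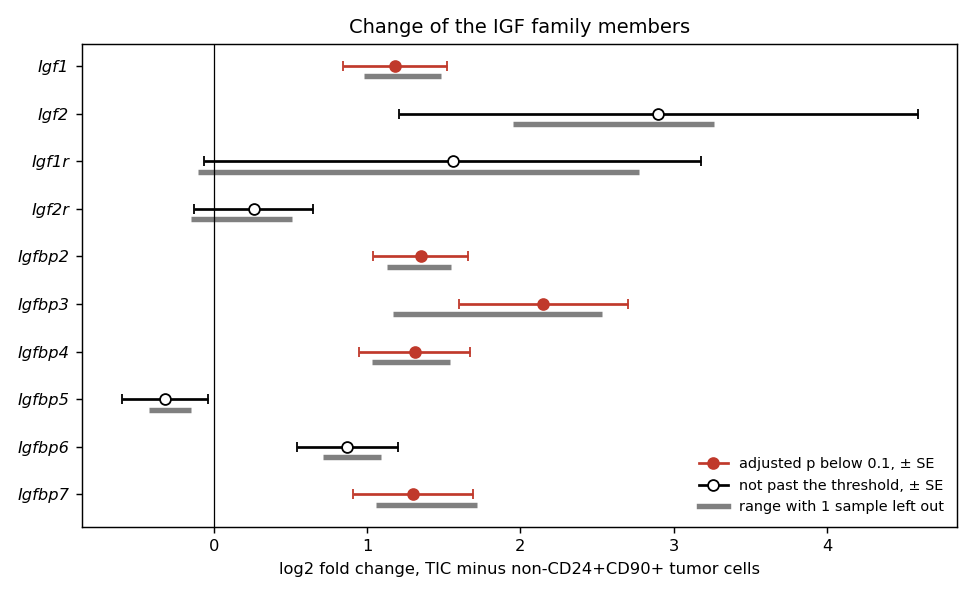
Log2 fold change (horizontal axis, TIC minus non-CD24+CD90+ tumor cells) of the 10 IGF family genes from edgeR, with bars for the SE, filled red points for genes called by exactTest at 0.1, and grey lines for the range when 1 of the 6 samples was left out. The 5 called genes lie between 1.18 and 2.15, the range of Igfbp3 reaches down to 1.17, those of Igf1r and Igf2r cross 0, and for Igf2 the fit in which the comparison cells had no count is not drawn.

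Levels of different genes were compared as CPM per kb of exon. In TICs the order was Igfbp5 (1381 ± 264), Igfbp2 (287 ± 87.0), Igfbp6 (143 ± 37.2) and Igfbp7 (142 ± 41.9 CPM per kb, SD, n = 3), of which Igfbp6 and Igfbp7 overlapped over the samples. Then followed Igfbp4 with 45.8, Igfbp3 with 30.7, Igf1 with 18.2 and Igf2r with 12.1 CPM per kb, each overlapping the next in range. Igf2 with 2.49 and Igf1r with 0.363 CPM per kb came last, and neither overlapped its neighbours in the order. In non-CD24+CD90+ tumor cells the first 5 places were the same, with Igfbp6 and Igfbp7 again overlapping. Igf2r (10.1), Igf1 (8.05) and Igfbp3 (6.93 CPM per kb) followed, each overlapping the gene before it, and Igf2 and Igf1r overlapped at the end. With the longest transcript as the length, Igf1 preceded Igf2r in the comparison cells as well.

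The summed level of the 6 binding proteins was nearly the same in both groups, while its makeup differed. The sum was 2179, 2055 and 1856 CPM per kb in TIC replicates 1 to 3 and 1701, 2092 and 2212 CPM per kb in the comparison samples, so that the groups overlapped. Igfbp5 made up 71.4%, 73.5% and 58.1% of it in TICs and 85.6%, 86.7% and 86.6% in the comparison cells. The other 5 binding proteins together held 28.6%, 26.5% and 41.9% in TICs against 13.3% to 14.4%. Igfbp2 alone accounted for 9.93% to 20.4% in TICs and 5.32% to 6.02% in the comparison cells. The summed ligand level was 17.3, 24.9 and 19.9 CPM per kb in TICs and 10.96, 8.55 and 5.62 CPM per kb in the comparison cells. Binding protein transcripts therefore exceeded ligand transcripts 126-, 82.5- and 93.2-fold in TICs and 155-, 245- and 394-fold in the comparison cells. Without Igfbp5 the groups overlapped in this ratio, at 35.9, 21.9 and 39.1 in TICs and 22.4, 32.6 and 53.0 in the comparison cells. These sums run over genes chosen with results known and are given as a description without a test.

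**Figure D3:**
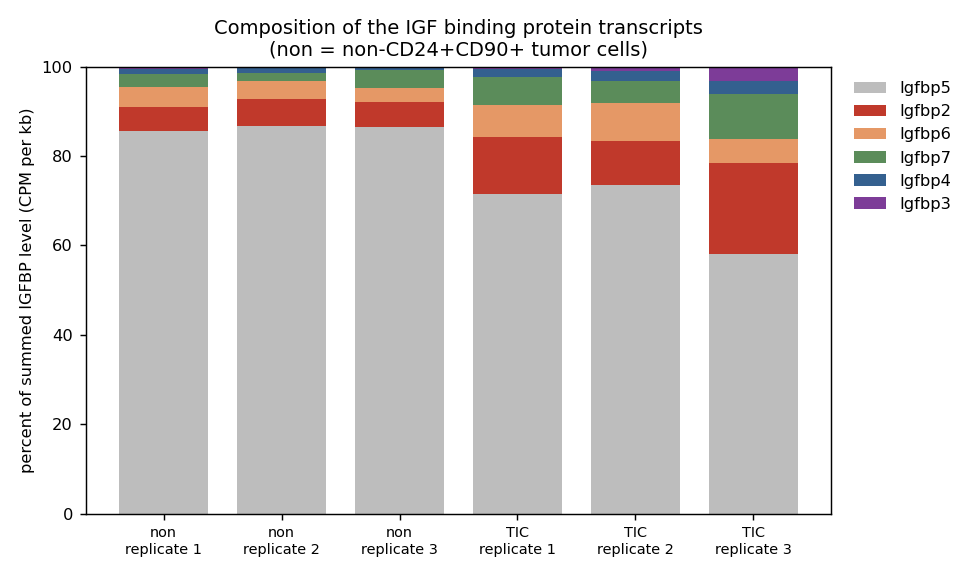
Share of each of 6 binding proteins in their summed level (vertical axis, percent of CPM per kb of exon) in 3 non-CD24+CD90+ samples (non) and 3 TIC samples. Igfbp5, the grey part, holds 85.6% to 86.7% in the comparison samples and 58.1% to 73.5% in TICs, with the largest remainder in TIC replicate 3.

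Of 8 genes for proteases that cut IGF binding proteins and for inhibitors of such proteases, 6 passed the filter and 2 rose, where 1.36% of all tested genes were called higher. Adam12, a membrane metalloprotease able to cleave IGFBP3 and IGFBP5, had 87.7, 50.02 and 92.4 CPM in TIC replicates 1 to 3 and 12.4, 19.4 and 38.3 CPM in the comparison samples. Its log2 fold change was 1.71 (SE 0.52, adjusted p = 0.092, edgeR's exactTest). Htra1, a secreted serine protease, had 67.7, 82.0 and 95.5 CPM against 27.7, 41.4 and 21.7 CPM, with a log2 fold change of 1.43 (SE 0.44, adjusted p = 0.096). In both genes every TIC sample was above every comparison sample, and the quasi-likelihood test called neither (adjusted p = 0.27 and 0.24). Pappa, the protease of IGFBP4, had 10.4, 11.3 and 50.5 CPM in TICs and 3.21, 2.72 and 10.01 CPM in the comparison cells and did not pass (log2 fold change 2.18, adjusted p = 0.61). Stc1 and Stc2, whose products inhibit PAPPA, had log2 fold changes of 1.48 and 0.77 (adjusted p = 1 for both).

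Downstream of the receptors no gene of the lists passed in exactTest. With 1.36% of all tested genes called higher and 0.189% lower, so few calls are near the background for lists of this size. Of 36 genes for adaptors and the PI3K-AKT-mTOR pathway 35 were tested, with a median log2 fold change of -0.13 and 0 calls in edgeR's exactTest, in the quasi-likelihood test and in DESeq2. The 2 with unadjusted p-values under 0.05 in exactTest were Foxo1 (log2 fold change -0.75, adjusted p = 0.35), a transcription factor held out of the nucleus by AKT, and Gsk3b (-0.68, adjusted p = 0.52), a kinase inhibited by AKT. All 12 genes of the RAS-MAPK arm were tested, with a median of -0.06, 0 calls in the 3 tests and, in each of them, none with an unadjusted p-value under 0.05. Of 16 FOXO target genes, which AKT signalling represses, 13 were tested, with a median of -0.36 and 0 calls in exactTest and the quasi-likelihood test. Trib1 (-0.92, adjusted p = 0.15) and Fbxo32 (-0.80, adjusted p = 0.50) had unadjusted p-values under 0.05, and DESeq2 called Trib1 (adjusted p = 0.037). The growth hormone axis had 8 of 9 genes tested, a median of -0.10, 0 calls in all 3 tests and, in exactTest, none with an unadjusted p-value under 0.05.

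Among the remaining relatives of the family, 5 of 10 genes had no count in any sample, among them both insulin genes, Igfbp1 and Igf2bp1. Since genes well above 3 counts were often at 0 in a single sample, 0 counts do not show that these genes were absent. The 2 that were tested were Insr and Igfals, the gene of the subunit that stabilizes IGF complexes in blood (log2 fold change -0.15, SE 0.60, adjusted p = 1). Igf2bp2 had 80 counts in TIC replicate 3 and at most 1 in any other sample. Of 9 genes imprinted like Igf2 or lying beside Igf2 and Igf2r, 4 were tested and 0 were called in any of the 3 tests, with a median of -0.22 and none with an unadjusted p-value under 0.05.

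**Figure D4:**
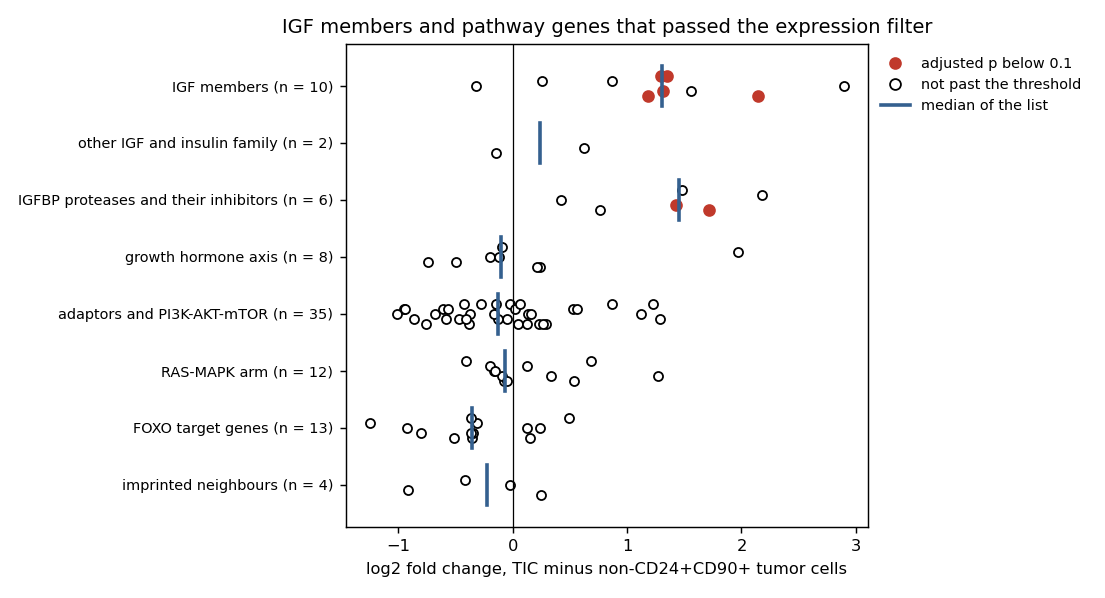
Log2 fold change (horizontal axis, TIC minus non-CD24+CD90+ tumor cells) of each gene that passed the expression filter, by list, with red points for genes called by exactTest at 0.1 and a blue line at the median of the list. The called genes are 5 IGF family members and 2 protease genes, and the medians of the signalling lists lie between -0.36 and -0.06.

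Marker lists of several other cell types also differed between the groups. Over all tested genes exactTest called 1.36% higher and 0.189% lower, the shares to set beside the calls in each list. Of 14 fibroblast genes, 13 were tested and 7 rose in TICs in exactTest, of which the quasi-likelihood test called 4. The 7 were the collagen genes Col1a1, Col1a2 and Col3a1 and the matrix or fibroblast genes Dcn, Dpt, Mfap5 and Pi16. The summed level of the list was 8160 to 11556 CPM in TICs against 3151 to 3550 CPM in the comparison samples. Most of this sum was Col1a1 and Col1a2, with means of 4718 and 2666 CPM in TICs and 1622 and 662 CPM in the comparison cells. Pdgfra, Fap, Lum, Twist2, Clec3b and Col15a1 were not called, with log2 fold changes from 0.65 to 1.43. Tcf21 had no count. Of 9 pericyte genes 1, Rgs5, passed the test and the sum was 864 to 1307 against 415 to 472 CPM. Of 12 endothelial genes 1, Robo4, passed, and the sum was 311, 498 and 1194 CPM in TIC replicates 1 to 3 against 233 to 271 CPM. TIC replicate 3, the sample with the most Igfbp2, Igfbp3, Igfbp4 and Igfbp7, had the highest sum of the 6 samples for the fibroblast, pericyte, endothelial and adipocyte lists. Among TICs these sums were lowest in replicate 1, as were Igf1, Igfbp3 and Igfbp4. Igfbp2 and Igfbp7 were instead lowest in TIC replicate 2, where Igf1 was highest. The 16 luminal epithelial genes summed to 4723 to 5692 CPM in TICs and 7323 to 7449 CPM in the comparison samples. They had 0 calls in exactTest and the quasi-likelihood test. DESeq2 called 2 of them, Cdh1 and Krt18, both lower in TICs (adjusted p = 0.026 and 0.0018). The same 2 had an unadjusted p-value under 0.05 in exactTest. The basal and myoepithelial sums, with 0 genes called in the 3 tests and 1 with an unadjusted p-value under 0.05, overlapped at 898 to 1258 and 950 to 1622 CPM. Of 9 adipocyte genes 2 passed the filter, Fabp4 and Lpl, and these held most of the sum of the list. Fabp4 was called, while Lpl overlapped between the groups (log2 fold change 0.87, adjusted p = 0.35, edgeR's exactTest). The sum was 392.3 to 1707 against 239 to 350 CPM, while Adipoq, Lep, Plin1 and Retn had no count. Of the leukocyte list, Lyz2 was called, the sums overlapped at 166 to 328 and 123 to 178 CPM, and Cd3e and Adgre1 had no count. The paper reads the higher collagen, Vimentin, Zeb1 and Twist1 transcripts of TICs as an epithelial-to-mesenchymal transition of these cells. Whether other cell types or tumor cells with these transcripts account for the higher Igf1 and binding protein levels was not tested.

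**Figure D5:**
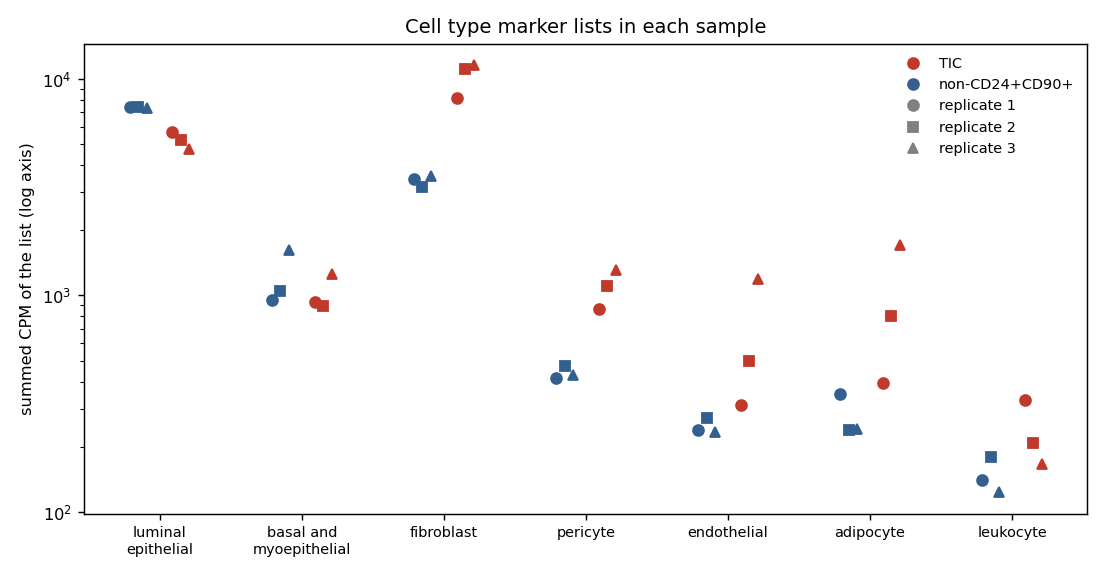
Summed CPM of 7 cell type marker lists (vertical log axis) in 3 non-CD24+CD90+ samples (blue) and 3 TIC samples (red), with the symbol giving the replicate. The fibroblast, pericyte, endothelial and adipocyte sums of all TIC samples lie above those of the comparison samples, and the luminal epithelial sums lie below.

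For each member, the 3 genes with the most similar profile were sought among 3788 tested genes with a mean above 50 CPM, by the root mean square difference of centred log2 CPM over the 6 samples. Nearest to Igf1 were Fstl1 (0.201), Sema3c (0.207) and Maf (0.210). Nearest to Igfbp2 were Lrrc15 (0.0862), Smoc2 (0.129) and Lrp1 (0.203). Igfbp3 had more distant neighbours, Msx1 (0.342), Mmrn2 (0.358) and Arhgef15 (0.376). For Igfbp4 they were Pcsk5 (0.198), the IGFBP protease gene Htra1 (0.201) and Ccn4 (0.216), and for Igfbp7 they were Pcolce (0.233), Cpxm1 (0.244) and Cd74 (0.248). Of the members that were not called, Igfbp5 had the closest neighbours, Irx1 (0.0542), Coa3 (0.0563) and Ppp4r3a (0.0577), followed by Igfbp6 with S100a6 (0.0705), Elk3 (0.0720) and Selenok (0.121). Igf2r was nearest to Gm9294 (0.10), Tm2d2 (0.117) and Mrps15 (0.153). The sparsely counted genes had no close profile, with Ly6a (1.42), Mmp13 (1.65) and Cd36 (1.67) nearest to Igf2 and Gpatch11 (0.777), Afg3l2 (0.856) and Prelp (0.880) nearest to Igf1r. No gene was among the nearest 3 of more than 1 member. The profiles were centred but not scaled, so a distance also depends on how much a gene varied between samples. Distances of different members are therefore not a measure of how alike their neighbours are regulated. The points are the 6 samples, and the values are a description without a test.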

How the data were processed

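Trimming with Trimmomatic 0.32, alignment to GRCm38 with STAR 2.4.0, removal of multiply mapped reads with SAMtools 1.1 and counting with HTSeq were done by the authors, who deposited raw counts per Ensembl gene with no normalization. Reads of near-identical genes are therefore undercounted. The annotation release and the strand setting are not given in the sources used here. Symbols, coordinates and exon lengths were taken from GENCODE M21 on GRCm38, which named 40254 of 41388 genes. The others held 0.171% of counts.

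Samples were grouped by GEO's description field. Genes above 1 CPM in at least 3 samples were kept. The groups were compared with exactTest in edgeR 4.0.16 under R 4.3.3 (TMM factors, tagwise dispersions), the test named by the study, with Benjamini-Hochberg adjustment over all 12192 genes and a threshold of 0.1. The common dispersion was 0.678. Standard errors came from the negative binomial fit, and 95% intervals are 1.96 SEs wide on each side. Levels per kb used the union of annotated exons. An exact permutation of 3 samples against 3 cannot go below p = 0.1, and smaller p-values rest on the spread that edgeR shares across genes. They measure the spread between pools of sorted cells. No p-value is given for sums or ratios over members. Log2 CPM profiles used a prior count of 2. Replicate numbers follow accession order.

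The members, the pathway and marker lists and the tests were chosen with earlier results of these data known. Named were all members, every pathway gene that passed, up to 3 defining genes of each marker list and the 3 nearest profiles of each member. Other genes were named after their values were seen. Alternatives were the quasi-likelihood test, DESeq2 1.42.0, other normalizations, filters and dispersions, a threshold of 0.05 and each sample left out. Scripts were tested on simulated counts.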

Additional observations from a re-analysis of the deposited data

How the results depend on the processing

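The number of genes called was 189 with exactTest, 50 with the quasi-likelihood test, 306 with DESeq2, 112 without a filter on low counts and 116 at an adjusted p-value below 0.05, and it ranged from 68 to 314 with each sample left out. Of the IGF members, 5 were called with exactTest, 1 with the quasi-likelihood test, 3 without a filter and 3 at an adjusted p-value below 0.05, and from 1 (without replicate 1 of the comparison cells) to 5 (without TIC replicate 1) with each sample left out. Of the pathway genes, 2 were called with exactTest, 3 with DESeq2 and 0 with the quasi-likelihood test, in which 7 had an unadjusted p-value under 0.05. The difference in mean log2 ratio of binding proteins to ligands was -1.32 and fell to -0.11 when Igfbp5 was left out, a choice made after its level was seen. The direction reversed for Igf1r without TIC replicate 2 (log2 fold change -0.10, range -0.10 to 2.77 with each sample left out) and for Igf2r without TIC replicate 1 (-0.15, range -0.15 to 0.51), neither of them called. The causes were not tested. The other 8 members kept their direction in every fit that gave a value. Igf2 gave none without replicate 2 of the comparison cells, which leaves that group at 0. Igf2 and Igf1r had few reads in most samples and differed widely between samples of similar depth, and their wide intervals leave either direction possible. No paired analysis was possible because the labels give no replicate numbers shared between the groups.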
